A study of Mus musculus with 4 samples.

Results

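Genes that mark the macrophages of bone marrow and their recycling of heme iron were followed through the RNA-seq libraries of sorted marrow progenitors. The 10 genes are the 3 C1q chain genes C1qa, C1qb and C1qc, the macrophage genes Vcam1, Cd68, Cd14 and Cd163, and the heme and iron genes Hmox1, Slc40a1 and Spic. The genes were taken by symbol, and all 10 were found among the 47561 genes of each deposited table. The 4 libraries came from LSK cells, the marrow fraction without lineage markers and with Sca-1 and c-Kit on its surface, which holds hematopoietic stem cells and multipotent progenitors, of C57BL/6 mice at 12 weeks of age. Metrn f/f, the control group, was 2 mice with a floxed Metrn gene, which the labels also call wild type. Metrn cKO was 2 mice with that floxed gene and also LysM, a driver active in macrophages, monocytes and neutrophils. The mice are called f/f 1, f/f 2, cKO 1 and cKO 2 below, the number being the replicate number of the labels. Both groups thus carried the floxed allele, and whether it was recombined in the sorted cells was not tested. Metrn encodes the secreted protein Meteorin, and the series concerned what Meteorin from macrophages does to stem and progenitor cells.

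In bone marrow, macrophages sit at the centre of erythroblastic islands, where maturing red cell precursors attach to them and leave their extruded nuclei to be engulfed. The same cells and their counterparts in spleen and liver take up worn-out red cells, split heme with heme oxygenase and return the iron to the blood through ferroportin. They also secrete C1q, the recognition protein of the classical complement pathway, which binds dying cells and immune complexes. Lineage depletion and the LSK gate are meant to leave such cells out.

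The FPKM values (fragments scaled by transcript length and library size, a unit inferred from the values) summed to between 392717 and 671802 per library, and 12175 to 12996 genes reached 1 FPKM. Read depth is unknown. The genes of the sort were present in all 4 libraries, but not at even levels. Kit had 108 FPKM in f/f 1, 24.8 in f/f 2, 25.9 in cKO 1 and 116 in cKO 2. The progenitor gene Flt3 had 153, 48.7, 78.3 and 189 FPKM in that order, so both genes were lowest in f/f 2 and cKO 1. Ly6a (Sca-1) had 37.2, 83.2, 48.4 and 38.2 FPKM, highest in f/f 2, and Cd34 had 265, 206, 118 and 312. Metrn itself lay between 29.3 and 66.3 FPKM with overlapping groups, which checks a myeloid deletion only in part. Lyz2, the locus of the driver, had 290 FPKM in f/f 1, 2406 in f/f 2, 2904 in cKO 1 and 245 in cKO 2. f/f 1 and cKO 2 were the most alike pair (Pearson r of 0.982 across the 13148 tested genes, which are not independent replicates), and the other 5 pairs had 0.836 to 0.937. f/f 2 and cKO 1 therefore stood apart from the rest, across the genotypes.

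The C1q chain genes had the widest range of the set. C1qa had 6.76 FPKM in f/f 1, 267 in f/f 2, 44.2 in cKO 1 and 7.50 in cKO 2. C1qb had 8.01, 297, 48.4 and 8.54 FPKM in the same order. C1qc had 4.64, 260.3, 36.9 and 7.08. f/f 2 was the highest library for each chain, cKO 1 came second, and the remaining libraries, one of each genotype, lay close together. The values of the genotypes overlapped for all 3 chains. The mean of the chains was 42.5 times higher in f/f 2 than in the other control library. In cKO 1 it was 5.60 times that of cKO 2. In bulk RNA a larger number of macrophages and more C1q RNA per macrophage cannot be told apart.

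The 3 chains of C1q assemble into a single protein, and their genes lie side by side on the minus strand of chromosome 4, within 18.7 kb (positions 136880129 to 136898803 of GRCm38, GENCODE M21). C1qb spans 136880129 to 136886187, C1qc 136889804 to 136893065 and C1qa 136895917 to 136898803. Cd68, a glycoprotein of macrophage lysosomes, lies on chromosome 11 (69664213 to 69666153, minus strand). RefSeq promoter windows on GRCm38.p6 were matched by symbol for 5 of the 10 genes (C1qb, C1qc, Cd68, Cd163 and Spic). The 250 bases before the start are shown for C1qb and Cd68, 1 gene each from the C1q chains and the lysosomal markers, with motif matches in capitals.
C1qb, chr4:136886201-136886450, minus strand: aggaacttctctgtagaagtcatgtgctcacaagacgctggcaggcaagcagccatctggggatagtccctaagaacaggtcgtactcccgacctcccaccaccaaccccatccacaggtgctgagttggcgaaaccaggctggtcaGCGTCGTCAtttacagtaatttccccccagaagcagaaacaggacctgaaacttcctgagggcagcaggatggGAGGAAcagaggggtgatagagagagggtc
Cd68, chr11:69666171-69666420, minus strand: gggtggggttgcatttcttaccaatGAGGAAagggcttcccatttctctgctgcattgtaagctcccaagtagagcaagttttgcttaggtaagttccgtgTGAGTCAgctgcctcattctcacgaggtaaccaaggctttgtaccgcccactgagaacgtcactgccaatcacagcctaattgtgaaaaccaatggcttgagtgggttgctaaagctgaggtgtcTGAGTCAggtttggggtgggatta
Both strands were searched for GAGGAA, a core bound by ETS factors such as PU.1, for TGANTCA, a core of AP-1 and Maf recognition elements that reads the same on both strands, and for TGACNNNGC, a core of the antioxidant response element. In C1qb, GAGGAA began 30 bases before the start and TGACNNNGC lay on the opposite strand from 103 bases before it. In Cd68, GAGGAA began at 225 bases, and TGANTCA at 149 and at 24 bases before the start. No matches overlapped. Of the 32851 promoter windows of this length, 23.3% held GAGGAA, 6.75% TGANTCA and 10.2% TGACNNNGC. The matches describe the letters of these windows and are not evidence of binding.

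**Figure D1:**
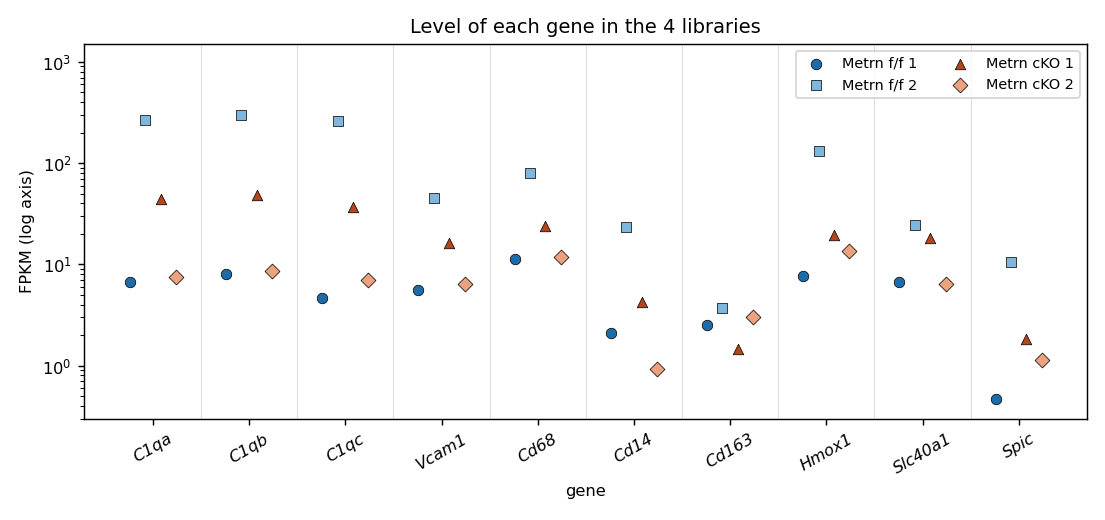
FPKM on a log axis of the 10 genes in each of the 4 libraries, 1 point per library. f/f 2 is the highest point for every gene (Cd163 is highest in cKO 2 once FPKM sums are equal), from 3.74 FPKM for Cd163 to 297 for C1qb, and f/f 1 and cKO 2 lie close together for most genes.

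Among the macrophage surface and lysosome genes, Cd68 had 11.4 FPKM in f/f 1, 80.4 in f/f 2, 24.0 in cKO 1 and 11.8 in cKO 2. Vcam1, the adhesion molecule by which island macrophages hold erythroblasts (chromosome 3, 116109949 to 116129688), had 5.63, 44.8, 16.2 and 6.34 FPKM. Both genes had the library order of C1qa (for Cd68 the lowest libraries change places when the sums are made equal), over a narrower range: the highest library was 7.05 times the lowest for Cd68 and 7.96 times for Vcam1, against 39.5 times for C1qa. The Vcam1 gene overlaps an antisense gene, and the strand setting of the counting is not given in the sources used here. Cd14, the co-receptor that hands bacterial lipopolysaccharide to TLR4, had 2.08, 23.5, 4.25 and 0.932 FPKM, with its lowest value in cKO 2. Cd163, the scavenger receptor for haptoglobin-hemoglobin complexes (chromosome 6, 124304656 to 124330527), went its own way. It had 2.53, 3.74, 1.48 and 3.01 FPKM, so that cKO 1, the second highest library for the other 9 genes, was its lowest. Its highest library was 2.53 times its lowest, the narrowest range of the 10 genes.

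Heme and iron genes spread over the libraries to different degrees. Hmox1, the inducible heme oxygenase that opens the heme ring (chromosome 8, 75093621 to 75100589), had 7.63 FPKM in f/f 1, 132.5 in f/f 2, 19.4 in cKO 1 and 13.5 in cKO 2. Spic, the transcription factor that iron-recycling macrophages need (chromosome 10, 88674772 to 88685015), had 0.467, 10.6, 1.83 and 1.15 FPKM. Slc40a1, which encodes the iron exporter ferroportin (chromosome 1, 45908068 to 45926523), had 6.64, 24.4, 18.2 and 6.40 FPKM. For Hmox1 and Spic, f/f 2 was 6.83 and 5.82 times cKO 1, close to the 6.37 times of the C1q mean. For Slc40a1 the same ratio was 1.34. Between the libraries most alike, Hmox1 was 1.77 times and Spic, at low levels, 2.45 times as high in cKO 2 as in f/f 1, while Slc40a1 was at 0.965 times.

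Differences between mice of 1 genotype were set against all tested genes on the log2(FPKM + 1) scale, with 1 library on each side and so no test. From f/f 1 to f/f 2, 9 of the 10 genes were at least 2-fold higher, the exception being Cd163, while 13.7% of all 13148 tested genes were. None of the 10 was 2-fold lower, as 21.9% of tested genes were. The median difference was 2.99 for the 10 genes and -0.23 for all tested genes. From cKO 2 to cKO 1, 6 of the 10 were at least 2-fold higher (C1qa, C1qb, C1qc, Vcam1, Cd14 and Slc40a1) against 6.72% of tested genes, and 0 were 2-fold lower against 12.4%, with medians of 1.30 and -0.24. Between cKO 2 and f/f 1, the alike pair, 0 of the 10 were 2-fold higher and 0 were 2-fold lower, where 0.745% and 0.616% of tested genes were. All 10 genes had their highest value in f/f 2, as did 29.8% of tested genes. With each library rescaled to the same FPKM sum, 9 of 10 did, against 13.3% of tested genes, Cd163 then being highest in cKO 2. That rescaling moved the median difference of all genes between the controls from -0.23 to -0.88. On that scale C1qb still had 10.4 in f/f 1 and 226 in f/f 2, and Slc40a1 had 18.6 in f/f 2 and 16.5 in cKO 1.

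Transcript length moved with these differences. Among tested genes whose longest protein-coding transcript in GENCODE was under 1 kb, the median difference of f/f 2 minus f/f 1 was 1.27 (620 genes), and it was -1.49 for those of 6 kb or more (1373 genes). The corresponding medians of cKO 1 minus cKO 2 were 0.31 and -0.79, and those of cKO 2 minus f/f 1 were 0.12 and -0.03. The C1q transcripts are short, at 1.04 kb for C1qa, 1.09 kb for C1qb and 1.20 kb for C1qc, while those of Slc40a1, Vcam1 and Cd163 have 3.37, 3.47 and 4.44 kb. Relative to the median of their own length class, all 10 genes were higher in f/f 2 than in f/f 1, by 1.37 for Cd163 up to 4.96 for C1qc. Vcam1 lay 3.34 above its class and Slc40a1 2.29, more than the 2.14 of Cd68. Between the Metrn cKO libraries 9 of 10 were above their class, with Slc40a1 at 1.65 and Hmox1 at 0.46, and Cd163 was at -0.22. Length classes were added after the values were seen, and the part of length in the order of the genes was not tested.

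**Figure D2:**
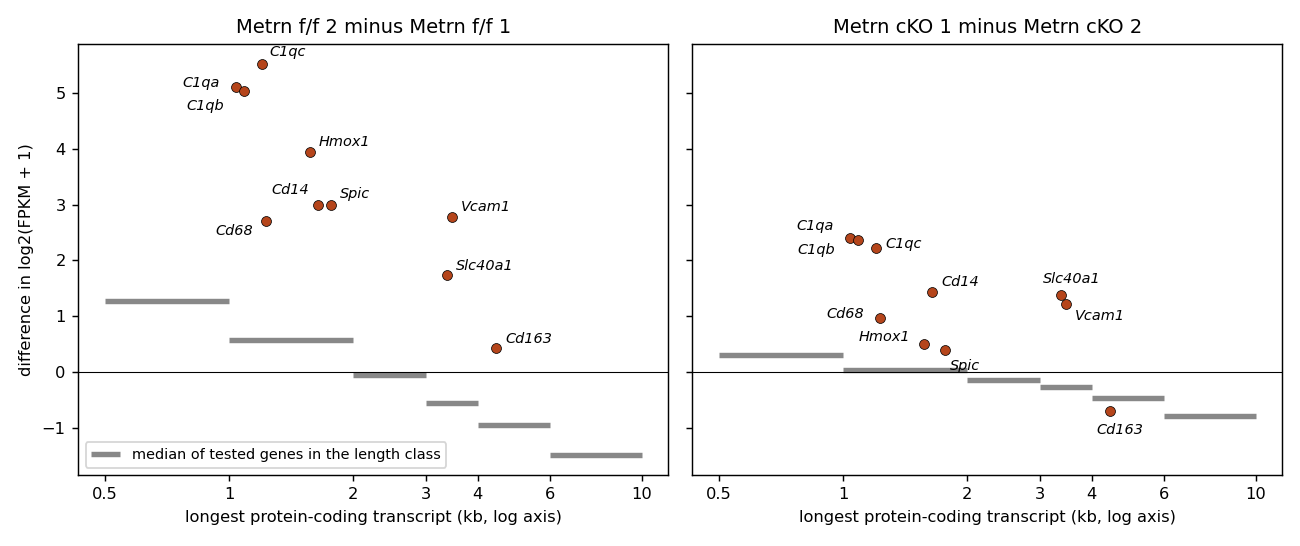
Difference in log2(FPKM + 1) between 2 libraries of a genotype (controls left, Metrn cKO right) against the length of the longest protein-coding transcript on a log axis, with a point for each of the 10 genes and a grey bar for the median of all tested genes in a length class; the outermost bars stand for open classes. The grey bars descend with length, from 1.27 to -1.49 between the controls, and every gene lies above its bar there, while on the right Cd163 alone lies below.

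Within a library, the C1q chains kept nearly fixed proportions. C1qa was 0.971 to 1.04 times the mean of the chains in the 4 libraries, C1qb 1.08 to 1.24 times and C1qc 0.717 to 0.947 times, although the mean itself ran from 6.47 to 275 FPKM. No other gene of the set held its proportion to C1q to this degree. Each chain is itself part of that mean, which limits how far its ratio can move, while the other genes have no such limit. Cd68 was 1.76 times the C1q mean in f/f 1 and 1.53 times in cKO 2, but 0.292 times in f/f 2 and 0.556 times in cKO 1. Slc40a1 ran from 1.03 in f/f 1 to 0.0890 in f/f 2, and Cd163 from 0.392 to 0.0136 in the same libraries. For Hmox1 the ratio overlapped between genotypes, with 1.18 and 1.75 in f/f 1 and cKO 2 and 0.482 and 0.449 in f/f 2 and cKO 1. These ratios do not depend on how a library is scaled, but they do carry any effect of transcript length.

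**Figure D3:**
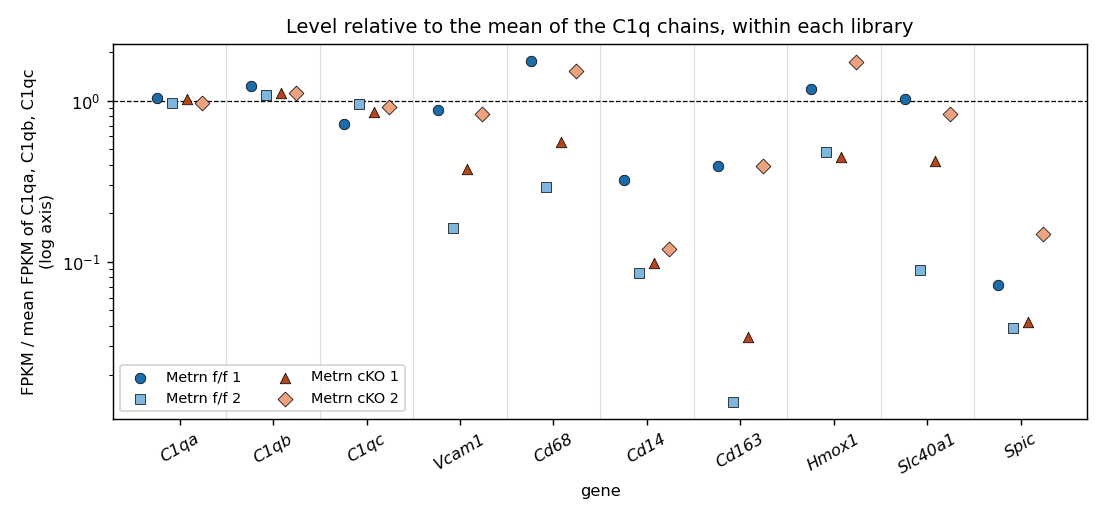
FPKM of each gene divided by the mean FPKM of C1qa, C1qb and C1qc in the same library, on a log axis, 1 point per library, with a dashed line at 1. The 3 chains stay between 0.717 and 1.24 in all libraries, and Cd163 covers the widest range, from 0.0136 to 0.392.

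Genotypes were compared to ask whether macrophage and iron genes differ in the sorted fraction when Metrn is deleted in myeloid cells. None of the 10 genes differed by limma, with adjusted p = 1.00 for each and unadjusted p between 0.215 for Cd14 and 0.774 for Slc40a1. Of the 13148 genes tested 0% passed at an adjusted p of 0.05 (0 genes), and 39 (0.297%) had an unadjusted p under 0.05, none of them among the 10. For all 10 genes the values of the genotypes overlapped (0 of 10 did not), where 12% of tested genes had both Metrn cKO values on one side of both controls. With 2 mice on each side an exact 2-sided permutation test cannot give a p below 0.333.

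The estimates were negative for all 10 genes, from -0.22 (SE 0.75) for Slc40a1 to -1.45 (SE 1.05) for Cd14, with a median of -0.91 against 0.07 for all tested genes. C1qb averaged 153 ± 205 FPKM over the controls and 28.5 ± 28.2 over the Metrn cKO mice (SD, n = 2 in each group), a log2 fold change of -1.26 (SE 1.59). Hmox1 had 70.1 ± 88.3 and 16.4 ± 4.19 FPKM, with a log2 fold change of -0.98 (SE 1.17). In both genes the SD of the controls exceeded their mean. The sign rested on f/f 2: without it, 9 of the 10 genes had positive estimates, such as 1.27 for C1qb, 0.99 for Hmox1 and 0.64 for Slc40a1, and Cd163 remained at -0.17. Without f/f 1, the estimates of C1qb and Hmox1 were -3.78 and -2.96. Length classes moved here too, with medians from -0.32 under 1 kb to 0.34 at 6 kb or more. Relative to their class the 10 genes lay between -1.28 for Cd14 and -0.39 for Slc40a1.

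**Figure D4:**
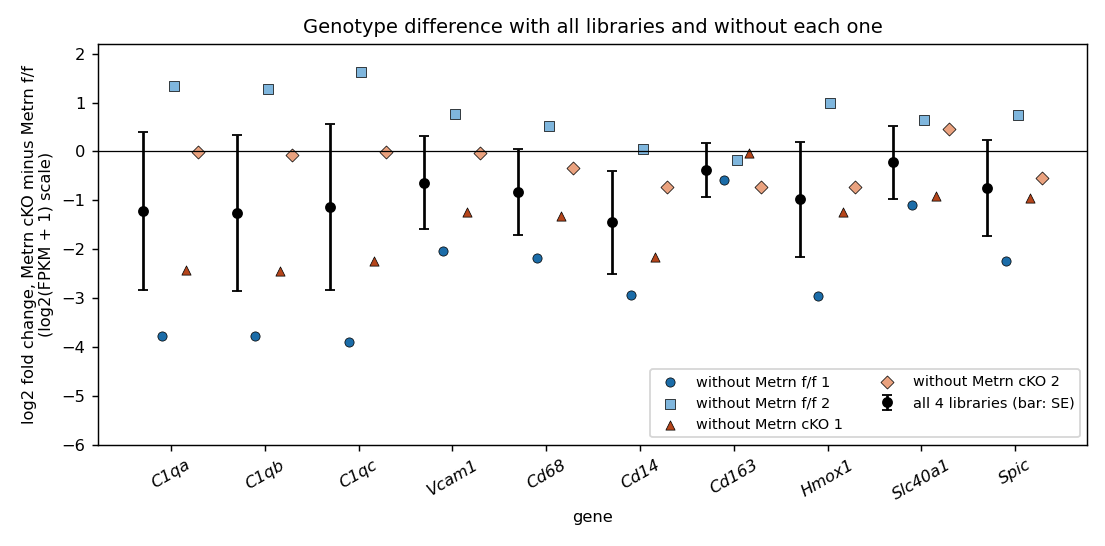
Log2 fold change of Metrn cKO minus Metrn f/f on the log2(FPKM + 1) scale for the 10 genes, with all 4 libraries (black, bar for limma's SE) and without each library in turn (colours). Estimates without f/f 2 are above 0 for 9 genes, up to 1.63 for C1qc, and those without f/f 1 are all below 0.

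Other genes of macrophages followed the set in part. Of 20 tissue and island macrophage genes 16 were tested, 0 passed in either direction, and the median log2 fold change was -0.39. f/f 2 was the highest library for 12 of the 16, or 9 with each library rescaled to the same FPKM sum, and the median difference of its genes from f/f 1 was 2.43. Apoe, an apolipoprotein that macrophages secrete, had 74.3, 983, 205 and 78.5 FPKM in f/f 1, f/f 2, cKO 1 and cKO 2. Maea, an adhesion protein of erythroblasts and macrophages, stayed between 43.5 and 52.9 FPKM, and Sirpa, the receptor for the do-not-eat-me signal CD47, between 21.2 and 37.0. Both are also made by other blood cells, and neither was highest in f/f 2. Siglec1 and Itgav were further tested genes not highest in f/f 2. Siglec1 had 0.392, 1.18, 1.26 and 0.481 FPKM in the order of Apoe, and Itgav had 2.68, 0.597, 1.51 and 2.30, lowest in f/f 2. Among genes of the list too low to be tested, Marco was listed at 0 in every library but f/f 2 (1.44 FPKM). Timd4 and Vsig4, also untested, had 1.82 and 1.26 FPKM in f/f 2 against at most 0.189 and 0.143 in the others.

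Heme and iron handling genes outside the set did not share one pattern. Of 20 genes 16 were tested and 0 passed, with a median log2 fold change of -0.02. Both Metrn cKO values exceeded both controls for 2 of them (Nfe2l2 and Ncoa4) and lay below for 1 (Slc11a2). Shares of all tested genes were 6.31% above and 5.73% below. The ferritin genes Ftl1 and Fth1, which store iron, had 712, 2907, 1211 and 790.1 FPKM and 499, 1255, 509.6 and 574 FPKM. Hp, the haptoglobin gene, had 95.9, 326, 479 and 70.6. Ftl1 thus had the library order of C1qb while Hp was highest in cKO 1. Of 13 further complement genes 7 were tested, and 4 of these were highest in cKO 1 and 2 in f/f 2. The complement receptor subunit Itgb2 had 29.5, 66.2, 156 and 27.2 FPKM, the central component C3 40.7, 33.7, 145 and 28.1, and the properdin gene Cfp 19.3, 101, 43.8 and 17.2. C1s1, a protease partner of C1q, was listed at 0 in 3 libraries and at 0.0692 FPKM in cKO 1.

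Partners of CD14 and VCAM1 had their highest values elsewhere in most cases. Of 6 genes around CD14 and TLR4, 0 passed and 1 was highest in f/f 2. Lbp, the lipopolysaccharide-binding protein, had 26.8, 27.8, 44.0 and 25.5 FPKM, the adaptor gene Myd88 22.9, 33.1, 34.8 and 28.3, and Ticam2 8.46, 3.65, 6.32 and 10.5. Of the 4 integrin genes whose products can bind VCAM1, 0 passed and 0 were highest in f/f 2. The genes of the VLA-4 chains, Itga4 and Itgb1, had 35.9, 6.49, 16.3 and 32.5 FPKM and 50.4, 27.6, 33.3 and 49.9 FPKM, the reverse of the order of Vcam1. Itgb7 had 19.5, 19.7, 26.8 and 22.9.

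Genes of other mature cells differed between the same libraries. Most neutrophil and B cell markers were highest in cKO 1, while most erythroid markers were highest in f/f 2, like the set. Neutrophil markers summed to 2577 and 32574 FPKM in the controls and to 58466 and 2023 in cKO 1 and cKO 2, so that their sum was highest in cKO 1. Of the 10 genes 7 were highest in cKO 1, among them S100a9, S100a8 and Ngp, and 3 in f/f 2, with Retnlg at 608 FPKM there against 122 in cKO 1, Mmp8 at 43.3 against 21.1 and Cxcr2 at 9.18 against 8.26 (8 and 2 with equal FPKM sums, 6 and 4 with size factors from median ratios). All 7 B and plasma cell markers were highest in cKO 1 (6 with equal FPKM sums), among them Ighm, Jchain and Cd79a, with sums of 191 and 1056 FPKM in the controls and of 4049.9 and 242 in Metrn cKO. Monocyte markers summed to 429 and 953 FPKM in the controls and to 1031 and 361 in Metrn cKO, most of it Ly6c2 (363, 869, 944 and 309 FPKM). Their genes did not share one order: 3 of 7 were highest in cKO 1, 2 in f/f 2 and 2 in f/f 1. With equal FPKM sums 4 were highest in cKO 1 and 0 in f/f 2. Next in level were Ms4a6c, highest in f/f 2 (42.1 FPKM, 34.6 in cKO 1), and F13a1, highest in f/f 1 (24.0) and lowest in f/f 2 (14.9). The erythroid markers were highest in f/f 2 for 10 of 11 genes. Klf1, the master regulator of red cell genes, had 3.25, 36.2, 5.31 and 2.28 FPKM, a ratio of f/f 2 to cKO 1 of 6.82. For the globin gene Hba-a1 (1248, 12451, 10354 and 1027 FPKM) the same ratio was 1.20, and Hbb-bs and Hbb-bt were likewise high in both of these libraries. Dendritic cell markers summed to 8.42 to 48.2 FPKM in the 4 libraries, with Siglech, Itgax and Cd209a the most abundant. Stromal and endothelial markers, listed because stroma also makes Vcam1, summed to 5.95 to 15.8, led by Pdgfrb, Cxcl12 and Stab2. The 2 tested genes of this list differed. In f/f 1, f/f 2, cKO 1 and cKO 2, Pdgfrb had 13.4, 2.84, 4.09 and 14.7 FPKM, lowest in f/f 2. Cxcl12 had 1.00, 3.06, 0.443 and 0.299, highest in f/f 2. Lepr was listed at 0 in 3 libraries and at 0.0237 FPKM in f/f 1. Hepatocyte and Kupffer cell markers were lowest in f/f 2, at a sum of 1.13 FPKM against 12.0 to 43.6 elsewhere, led by Alb, Apoa2 and Apoa1, and Clec4f, which defines Kupffer cells, was at most 0.186 FPKM. All 8 immediate early genes, which respond to handling, had both Metrn cKO values below both control values, or 7 of 8 with size factors from median ratios, with Fos, Jun and Junb the most abundant. This held for 5.73% of all tested genes, and 0 of the 8 passed by limma. Their sums were 1401 and 2952 FPKM in the controls and 617 and 965 in the Metrn cKO libraries. The part of other cells and of handling in the levels of the 10 genes was not tested.

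**Figure D5:**
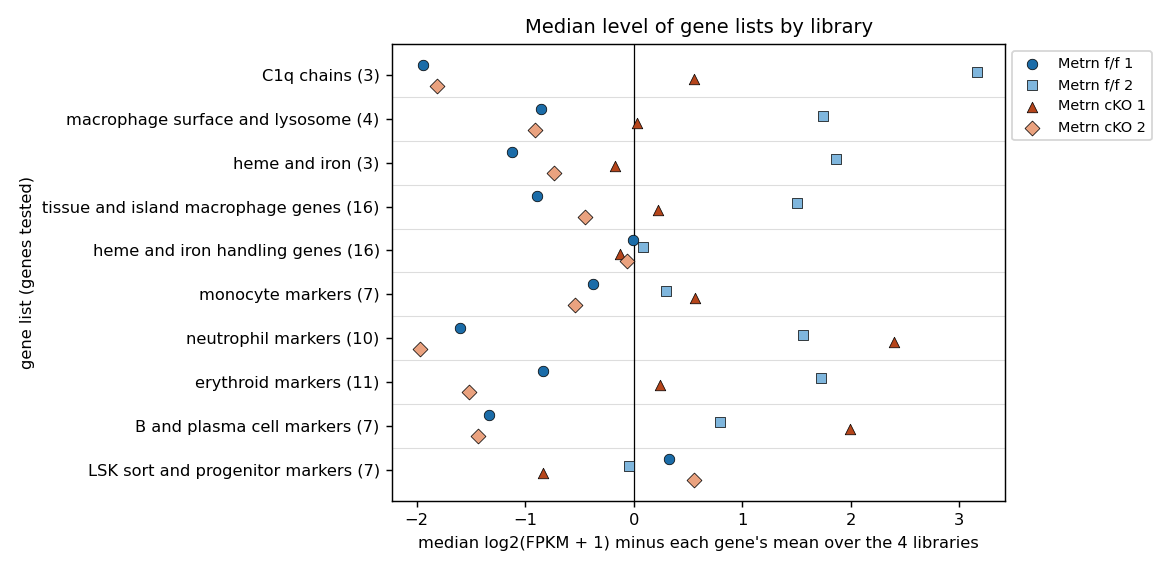
Median over the tested genes of each list of log2(FPKM + 1) minus the gene's mean over the 4 libraries, 1 point per library, with the number of genes in brackets. f/f 2 is rightmost for the C1q chains (3.16), the macrophage genes (1.50) and the erythroid markers (1.73), and cKO 1 for the neutrophil markers (2.40) and the B and plasma cell markers (1.99).

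Genes with profiles most like the set were sought by the smallest Euclidean distance between centred log2(FPKM + 1) values over the 4 libraries, among 8897 genes with a mean of at least 4 FPKM. For the mean profile of the C1q chains these included Ahsp, Ms4a7, Cldn13 and Trem2, at distances of 0.52 to 1.23. Ahsp, the chaperone of free alpha-globin, had 7.54, 306, 31.2 and 7.86 FPKM, and Trem2, a lipid receptor of macrophages, had 0.60, 17.3, 3.41 and 0. Ahsp is a red cell gene, while Ms4a7 and Trem2 are macrophage genes. The other 7 genes of the set lay farther from the C1q profile, from Hmox1, the nearest of them, to Cd163 at 4.10. For the average of Hmox1 and Slc40a1 the nearest were Scand1, Axl, Tspo2, Ccl6 and Pla2g7, at 0.11 to 0.37. Axl, a receptor for phosphatidylserine-bound ligands on engulfing macrophages, had 2.51, 21.2, 7.13 and 2.80 FPKM. Within the set, Vcam1 and Cd68 were closest to that average, at 0.21 and 0.24. Hmox1 and Slc40a1 themselves each lay farther from it, at 0.92, so genes near the average are not near either of them. With 4 libraries, and 2 of them apart from the rest, many genes can share a profile, and these distances are descriptions only.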

How the data were processed

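RNA-seq was done on total RNA of LSK cells that were sorted from the bone marrow of 2 mice per genotype, per the labels' protocols. P-values measure the spread between these mice. HISAT2 2.1, featureCounts 1.6.4, cutadapt 1.16.5, bcl2fastq 2.19, DESeq2 2.11.40.6 and the build mm10 are named, without a role, in the submitters' processing notes. The authors deposited a value per gene and library, here taken as FPKM: the values are 0 or positive decimals whose sums differ between libraries. No source used here gives the unit, the annotation or the strand setting. Very abundant transcripts lower the FPKM of all others in a library.

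The 13148 genes that reached 1 FPKM in 2 or more libraries were tested, all 10 members among them. Genotypes were compared on log2(FPKM + 1) by limma 3.58.1 in R 4.3.3, 2-sided, with a prior variance that follows intensity and p-values adjusted by Benjamini and Hochberg's method (threshold 0.05). Such fold changes understate those of low genes. The test was tried on simulated data first, with a spread taken from f/f 1 and cKO 2, the most alike pair. Libraries of 1 genotype were less alike (Pearson r of 0.837 and 0.872), so that trial does not show what the test can detect here. Lists are described by counts and medians, naming the 3 genes with the highest mean and any that passed. Genes with like profiles follow their own rule, the 5 nearest, of which 1 is not reported here. Among genes outside the set, Lepr, Clec4f, Marco, Vsig4, Timd4, Siglec1, Itgav, Nfe2l2, Ncoa4, Slc11a2, C1s1, Klf1, Retnlg, Mmp8, Cxcr2 and Ly6a were named after their values were seen. Transcript lengths from GENCODE M21 (GRCm38, also called mm10) covered 83.4% of tested genes. The members and lists were chosen with earlier results of these data known. Alternatives were another pseudocount, no filter, 2 rescalings, no trend, a replicate block and leaving out each library.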

Additional observations from a re-analysis of the deposited data

How the results depend on the processing

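None of the 10 genes passed under 10 other settings (pseudocount, filter, trend, scaling, replicate block and each library left out), where the smallest adjusted p by limma was 0.59. Their log2 fold changes kept their sign in 90 of those 100 values. Part of that count was fixed in advance, since dropping the filter or the trend and adding the block leave the estimates unchanged. The 10 reversals came without f/f 2 (C1qa 1.34, C1qb 1.27, C1qc 1.63, Vcam1 0.76, Cd68 0.53, Cd14 0.048, Hmox1 0.99, Slc40a1 0.64 and Spic 0.75) and without cKO 2 (Slc40a1 0.46). With each library left out in turn the lowest values were -3.77, -3.78, -3.90, -2.03, -2.19, -2.94, -2.96, -1.09 and -2.24 in that order, all without f/f 1, and Cd163 ranged from -0.72 to -0.03. The number of the 10 genes with genotypes that did not overlap went from 0 to between 1 and 10, since fewer libraries overlap less: 10 without f/f 1 (Metrn cKO below in all), 7 without f/f 2 (above in all), 2 without cKO 1 and 1 without cKO 2 (below in both cases). In the same order 77.9%, 51.8%, 53.2% and 41.7% of all tested genes did not overlap. The count of all genes called went from 0 to between 0 and 34 (4 without cKO 1, 34 without cKO 2). Groups left with 1 library were assumed to vary like the other.

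Replicate numbers are shared by the genotypes, but nothing in the labels pairs the mice, and deviations from the group means of same-numbered libraries had a correlation of -0.71. With the replicate number as a block 4 genes were called, 3 higher and 1 lower, none of them among the 10. With the numbers crossed, a pairing chosen after the data were seen, 102 genes were called (37 higher, 65 lower) and 0 of the 10, the nearest being Cd14 with an adjusted p by limma of 0.0500075. Depth is unknown, so counting error could not be given, and values near 1 FPKM such as those of Spic are the least certain.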
